A study of Mus musculus with 24 samples.

Results

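In bone marrow KLS cells (c-Kit+ Lin- Sca-1+) of mice that had lost both Daxx and Pu.1 (DKO), 869 of 22156 open chromatin regions (3.92%) were found in no other peak list of the study. They were distinct intervals of the DKO list on the standard chromosomes with no base in common with any interval of the other 10 lists. The lengths of the 11 lists added up to 549003 intervals, where a region in several lists is counted once in each. The same rule left 511 of 44694 peaks (1.14%) of the Daxx-KO KLS list and 42 of 33325 (0.126%) of the Daxx-WT KLS list. Over the 11 lists this share ran from 0.126% to 8.41% (Daxx-WT GMP), and Daxx-WT CMP, at 3.95%, stood close to DKO. The regions were chosen by the presence and absence of peaks, so their presence, their strength and their DKO against Daxx-WT values are given as a description, without a test.

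The study profiled haematopoietic stem and progenitor cells by ATAC-seq, in which a transposase inserts sequencing adaptors where chromatin is open, in 24 samples of 11 groups. The KLS groups were DKO (floxed, F/F, at both Daxx and Pu.1, with Cre +/-, 2 samples), Daxx-KO (Daxx F/F Cre +/-, 3 samples) and Daxx-WT (Daxx +/+ Cre +/-, 2 samples), all from C57BL/6 mice and collected 3 weeks post induction (w.p.i.), with Cre carried by the controls too. In the study's methods the Daxx; Pu.1 cross carried Mx1Cre, whose interferon-responsive promoter is switched on by injected pI:pC, so every cell that answers interferon can recombine. The labels do not name the Cre driver of the KLS samples, and the study bred Daxx mice to more than 1 driver, so any difference in driver or inducer between DKO and the Daxx-WT or Daxx-KO samples cannot be told apart from genotype. The other 8 lists came from long-term stem cells at 3 days post induction (d.p.i.) and from GMPs (granulocyte-monocyte progenitors), CMPs (common myeloid progenitors) and LT-HSCs (long-term stem cells) at 3 w.p.i., each as Daxx-KO and Daxx-WT, with tamoxifen-activated RosaCreERT2. A group with loss of Pu.1 alone was not analysed here, so the effect of losing both genes and that of losing Pu.1 cannot be told apart. In bulk samples, more cells with an open site and a more open site per cell cannot be told apart either.

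Daxx is a chaperone that, with the remodeller Atrx, places the histone variant H3.3 at heterochromatin and repeats. Pu.1, the product of Spi1, is an ETS-family transcription factor that opens enhancers of the myeloid and B lineages and binds a purine-rich site. C/EBP factors are basic leucine zipper proteins that drive granulocyte differentiation and act beside Pu.1 at many myeloid enhancers, and RUNX factors set up blood stem cell and progenitor enhancers.

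The genotypes could be read from the sites of differential accessibility, in scaled reads (reads of a library divided by its normalisation constant). A site inside Daxx (chr17:33913451-33914850) held 6.36 and 8.43 scaled reads in DKO, where Daxx-WT held 79.9 and 45.0. A site at the end of Spi1 (chr2:91114801-91115800) had 2.12 and 4.68 scaled reads in DKO and 31.1 and 58.1 in Daxx-WT. Other sites within Spi1 were higher in DKO, such as chr2:91112801-91114150 with 142 and 123 against 54.1 and 60.3 scaled reads. The mean reads per window of 600 bp were 9.98 and 16.0 in DKO and 8.35 and 7.45 in Daxx-WT, highest in DKO replicate 2. The normalisation constants ranked the libraries otherwise, at 0.94 and 1.07 in DKO and 1.13 and 0.91 in Daxx-WT.

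The genomic letters under some of the strongest regions are printed as examples and do not stand for all 869. The 5 windows printed first are from the 10 regions with the highest fold enrichment (leaving out windows over an annotated UTR), each with 100 bp to either side of the summit, on the plus strand of GRCm38 (mm10), named by the nearest protein-coding gene. Capitals mark a match to any of 24 fixed motifs, each searched on both strands.
Ednra, chr8:77803192-77803392: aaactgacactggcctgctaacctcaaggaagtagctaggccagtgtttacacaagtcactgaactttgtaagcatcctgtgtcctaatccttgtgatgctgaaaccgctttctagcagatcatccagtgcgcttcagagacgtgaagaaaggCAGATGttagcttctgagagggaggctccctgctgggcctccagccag
Smc5, chr19:23357374-23357574: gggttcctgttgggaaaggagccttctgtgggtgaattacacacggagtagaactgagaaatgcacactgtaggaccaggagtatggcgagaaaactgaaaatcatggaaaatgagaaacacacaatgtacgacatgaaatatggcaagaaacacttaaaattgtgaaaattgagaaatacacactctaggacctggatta
Rasl11b, chr5:74164860-74165060: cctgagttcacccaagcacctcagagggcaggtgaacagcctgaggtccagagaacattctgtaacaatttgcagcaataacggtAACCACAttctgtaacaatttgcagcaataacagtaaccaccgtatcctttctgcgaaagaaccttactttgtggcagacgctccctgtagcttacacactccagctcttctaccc
Rgs6, chr12:82969668-82969868: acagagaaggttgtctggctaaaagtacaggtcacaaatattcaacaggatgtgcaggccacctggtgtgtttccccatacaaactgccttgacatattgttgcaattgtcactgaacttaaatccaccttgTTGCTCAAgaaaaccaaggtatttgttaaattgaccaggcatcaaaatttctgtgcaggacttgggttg
Pelp1, chr11:70418265-70418465: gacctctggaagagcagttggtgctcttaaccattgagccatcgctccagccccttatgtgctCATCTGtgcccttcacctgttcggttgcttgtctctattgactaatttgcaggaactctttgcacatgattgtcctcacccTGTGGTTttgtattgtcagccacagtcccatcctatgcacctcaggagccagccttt
Motifs of several families stood in these windows. The Rgs6 window holds a C/EBP match (TTGCNNAA, here TTGCTCAA), the Rasl11b and Pelp1 windows a RUNX match (TGTGGTT or its reverse complement AACCACA), and the Ednra and Pelp1 windows a GATA-TAL E-box match (CAGATG). The Smc5 window held none of the motifs, and 41.6% of its peak was marked as repeat, as was 58.2% of the Pelp1 peak. The 4 windows that follow are of the strongest other members with a C/EBP match, chosen after the motif shares were seen, since C/EBP was the motif that most often lay near the summit.
Adtrp, chr13:41828537-41828737: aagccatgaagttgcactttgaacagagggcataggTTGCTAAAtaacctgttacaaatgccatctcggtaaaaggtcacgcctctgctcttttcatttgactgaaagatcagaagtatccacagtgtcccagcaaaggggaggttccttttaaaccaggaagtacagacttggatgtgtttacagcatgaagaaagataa
Cux1, chr5:136605302-136605502: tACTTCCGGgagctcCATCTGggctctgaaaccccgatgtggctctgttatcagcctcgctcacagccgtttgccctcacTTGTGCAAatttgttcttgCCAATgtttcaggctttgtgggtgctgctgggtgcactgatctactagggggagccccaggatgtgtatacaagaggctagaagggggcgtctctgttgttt
Rnf148, chr6:23723791-23723991: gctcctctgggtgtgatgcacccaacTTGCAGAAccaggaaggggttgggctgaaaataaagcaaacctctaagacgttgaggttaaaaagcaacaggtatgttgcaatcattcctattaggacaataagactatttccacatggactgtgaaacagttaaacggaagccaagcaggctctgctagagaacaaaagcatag
Mblac1, chr5:138207334-138207534: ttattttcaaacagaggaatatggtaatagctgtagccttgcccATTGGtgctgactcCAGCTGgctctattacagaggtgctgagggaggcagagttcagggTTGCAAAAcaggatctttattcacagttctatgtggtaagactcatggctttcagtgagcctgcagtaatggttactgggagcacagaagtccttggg
In each of these 4 windows 1 capital stretch is the C/EBP match, and the Cux1 window also holds an ETS match (CCGGAAGT), the E-box CAGATG and an NFY match (CCAAT), and the Mblac1 window an NFY match and the E2A E-box CAGCTG.

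The C/EBP letters lay within 100 bp of the summit in 242 of the 869 regions (27.8%). Their share was 11.5% of the DKO peaks shared with at least 1 other list, 7.74% of all Daxx-WT KLS peaks, 8.14% of all Daxx-KO KLS peaks and 7.24% of the 511 peaks found only in Daxx-KO KLS. The contrast was narrower over whole peak intervals. There 38.8% of the DKO-only regions, 29.0% of the shared DKO peaks, 28.5% of Daxx-WT and 30.3% of Daxx-KO KLS peaks held the letters. These intervals differ in length, with median widths of 531, 800, 854 and 879 bp in that order, and longer intervals can hold more matches. In the middle of the 27025 RefSeq promoters, over the same length, 7.49% held it. Shares of regions are descriptions and were not compared by a test. Among regions over 1000 bp from every annotated transcript start, 28.6% of the DKO-only regions, 18.5% of the shared DKO peaks, 9.78% of Daxx-WT and 9.90% of Daxx-KO peaks held the letters.

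The Pu.1 letters (GAGGAAGT) were rare in the DKO-only regions. They lay near the summit of 8 of the 869 regions (0.921%), against 4.13% of shared DKO peaks, 7.28% of Daxx-WT KLS peaks, 7.86% of Daxx-KO KLS peaks and 9.59% of the Daxx-KO-only peaks. RefSeq promoters held them in 2.11%. Among distal regions alone the shares were 0.784% of the DKO-only regions and 6.06% of the shared DKO peaks. The strongest of the 8 was near Cdv3 (chr9:103391771-103392552, fold enrichment 5.47), followed by Fbln1 and Usp39 at 4.89 and 4.75, all named after their values were seen.

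The distance of the letters from the summit can be read off as well. Within 20 bp of the summit, 10.7% of the DKO-only regions held a C/EBP match, 3.42% of the shared DKO peaks and 1.72% of the Daxx-WT KLS peaks. At 180 to 200 bp the shares were 1.5%, 1.14% and 1.19%. For Pu.1 the Daxx-KO-only peaks rose to 6.26% within 20 bp of the summit, and the DKO-only regions stood at 0.230% there.

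**Figure D1:**
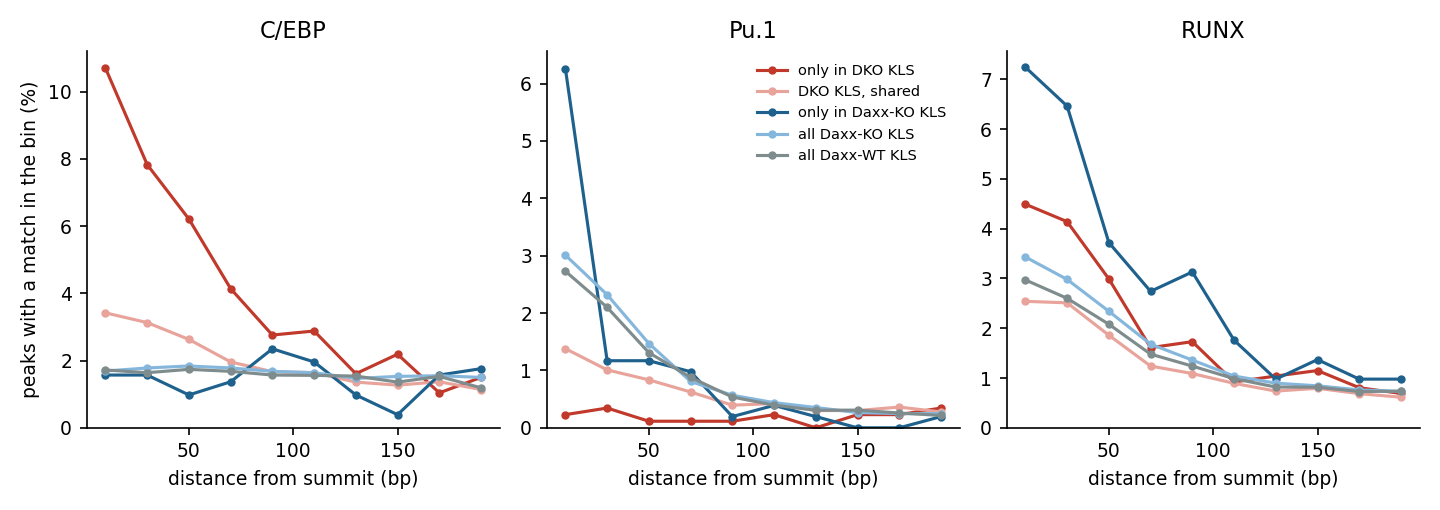
Share of peaks (percent, y axis) with a C/EBP, Pu.1 or RUNX match in each bin of 20 bp by distance from the summit (bp, x axis), for 5 sets of KLS peaks. The DKO-only regions reach 10.7% for C/EBP in the bin next to the summit, and 0.230% for Pu.1.

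The C/EBP share was not limited to peaks of the DKO list alone. DKO peaks held by 1 other list had the letters in 29.4% of cases, those held by 2, 3 or 4 other lists in 38.1%, 36.2% and 35.6%, and those held by all 10 other lists in 6.74%. For Pu.1 the shares were 3.68% with 1 other list and 3.81% with all 10, above the 0.921% of the DKO-only regions. Of the 869, 41 held 2 or more C/EBP matches, 29 held both C/EBP and RUNX and 23 both C/EBP and AP-1. Without such counts for the other peak sets, these do not show whether the motifs go together. The regions with a C/EBP match did not stand apart in strength or level: their median fold enrichment was 3.87 against 3.799 without one, and their median scaled reads were 113.5 and 103 in DKO and 27.95 and 40.6 in Daxx-WT, against 117, 107, 31.95 and 41.7.

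**Figure D2:**
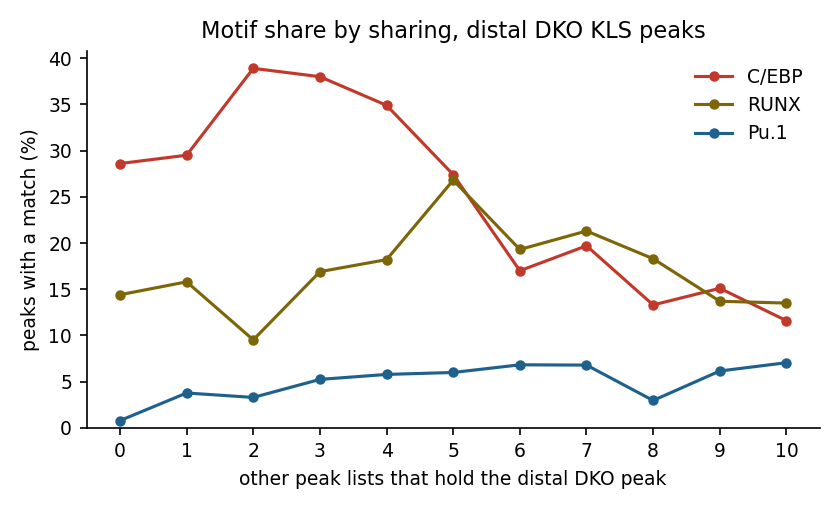
Share of distal DKO KLS peaks (percent, y axis) with a C/EBP, RUNX or Pu.1 match within 100 bp of the summit, by the number of other peak lists that hold the peak (x axis), 0 being the DKO-only regions. C/EBP stands between 28.6% and 38.9% for peaks in up to 4 other lists and falls to 11.6% for peaks in all 10, and Pu.1 is lowest, at 0.784%, in the DKO-only regions.

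Other motif families were counted in the same windows. RUNX letters lay in 14.2% of the DKO-only regions, 8.65% of shared DKO peaks and 21.1% of Daxx-KO-only peaks, and among distal regions in 14.4% and 15.2% of the DKO-only and shared peaks. AP-1 (TGANTCA) lay in 9.09% of the DKO-only regions and 6.46% of the shared peaks, an order that turned among distal regions (9.15% and 10.6%). The KLF box CCACACCC lay in 4.95% of the DKO-only regions, 3.08% of the shared peaks and 1.37% of the Daxx-KO-only peaks. In the same order, the promoter motif of SP and KLF factors (GGGCGG) lay in 5.52%, 40.2% and 6.26%, and ETS letters in 0.806%, 4.88% and 0%. The letters of CTCF, an insulator protein, lay in 0.230%, 3.17% and 0%. Away from starts the CTCF shares were 0.261% of distal DKO-only regions, 3.57% of distal shared peaks and 0% of distal Daxx-KO-only peaks. The low CTCF, ETS and GGGCGG shares were thus not particular to the DKO-only regions. The letters AGATAAG, read by GATA factors, lay in 1.73% of the DKO-only regions, 1.65% of the shared peaks and 1.57% of the Daxx-KO-only peaks. Of RefSeq promoters, 3.56% held the RUNX, 5.65% the AP-1 and 31.4% the SP and KLF letters. NRF1 and YY1 (AAGATGGCG) were in none of the 869, which says only that these letters were not in the windows. The other motifs searched were CRE (TGACGTCA), TCF and LEF (CTTTGATC), HOX and MEIS (TGATTNAC), RFX (GTTGCNNNG), and by name alone IRF, EBF, NF-kB and the telomere, CA and GA repeats. The Pu.1 and ETS letters share their last bases, and C/EBP and RFX matches can overlap. None of the 24 motifs was found in 194 regions (22.3%).

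The DKO-only regions were weak and narrow for the list they came from. Their fold enrichment over the local background ran from 2.01 to 8.63 with a median of 3.84, and the shared DKO peaks had a median of 5.01. The median member stood at percentile 23.6 of all DKO peaks by fold enrichment, and 86 members (9.90%) reached a fold of 5, against 50.2% of the shared peaks. Their median width was 531 bp against 800 bp, and 609 (70.1%) had 1 summit against 44.8%. The 511 Daxx-KO-only peaks had a median fold of 4.42 and a median width of 606 bp, and 77.5% had 1 summit. All Daxx-KO KLS peaks had medians of 6.28 and 879 bp, and 49.8% had 1 summit. The Daxx-KO-only peaks were thus weak and narrow for their own list as well.

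Most lay far from promoters. Over 1000 bp from every transcript start were 765 (88.03%) of the DKO-only regions, 42.9% of the shared DKO peaks, 54.7% of the Daxx-WT KLS peaks and 90.2% of the Daxx-KO-only peaks. The summit was in an intron in 489 (56.3%), intergenic in 303 (34.9%), in a UTR in 30 (3.45%), in a coding exon in 27 (3.11%) and in a non-coding exon in 20 (2.30%). For the shared peaks these shares were 33.5% intron, 42.5% intergenic and 16.5% UTR. The median distance to a start was 8027 bp. Their median GC share was 47.9% against 55.5% in the shared DKO peaks and 47.1% in the Daxx-KO-only peaks, and their median ratio of observed over expected CpG was 0.195 against 0.502 and 0.184. More than 50% of the bases were repeats in 39 members (4.49%), against 1.08% of the shared peaks and 5.28% of the Daxx-KO-only peaks.

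**Figure D3:**
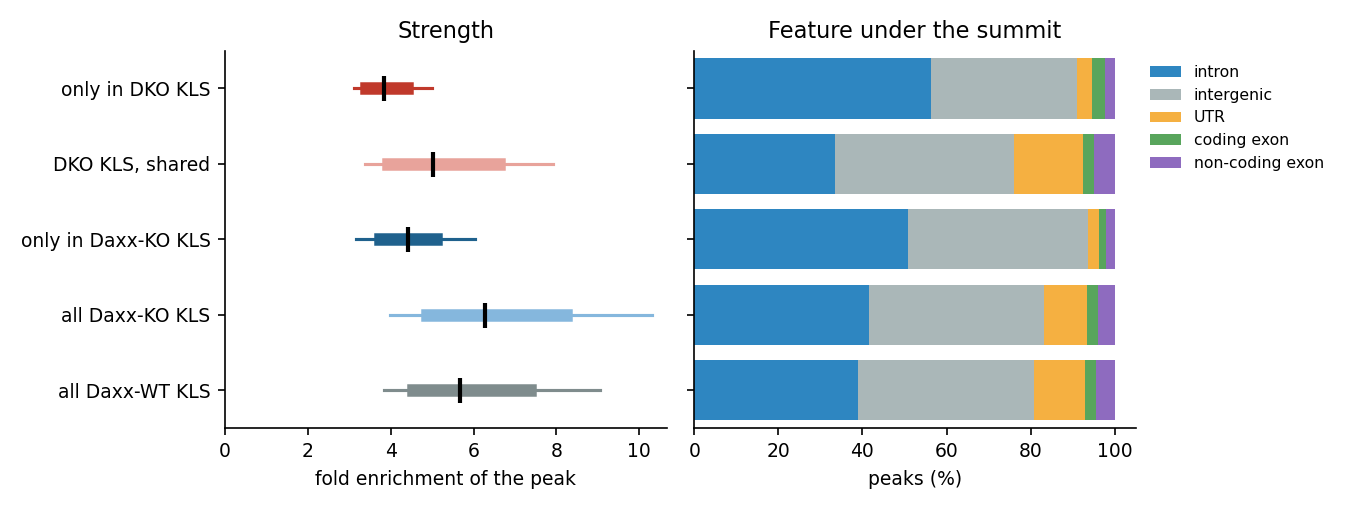
Left, fold enrichment (x axis) of 5 sets of KLS peaks, with the median as a tick, the middle 50% as a thick bar and the range from the 10th to the 90th percentile as a line. Right, share of peaks (percent) by the feature under the summit. The DKO-only regions have the lowest median fold, 3.84, and the largest intron share, 56.3%.

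The other lists often had a peak nearby. The nearest peak of any other list was 3290 bp away at the median and the nearest peak of the other KLS lists 7771 bp away, while 168 members lay under 1000 bp from a peak of another list and 182 over 10000 bp from every one. The nearest list was most often Daxx-KO LT-HSC (251 members, 28.9%) or Daxx-WT GMP (168 members, 19.3%), which are also 2 of the longer lists. At the threshold of 1 bp, the members just inside were 32 bp (Fam83h), 33 bp (Iqsec1) and 46 bp (Ptk7 and Clec12a) from a peak of another list, with fold enrichments of 3.18, 4.35, 3.22 and 5.73. The DKO peaks just outside shared 2 bp (Bdp1), 13 bp (Gstp3) and 20 bp (Pfkfb3), with fold enrichments of 1.52, 1.78 and 2.06.

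Of the 869 members, 828 (95.3%) overlapped a site of the DKO against Daxx-WT table, at 817 distinct sites, and all 828 were higher in DKO by mean scaled reads, as were 72.1% of the 50928 sites of the table. Both DKO libraries were above both Daxx-WT libraries at all 828, as at 72.1% of the table's sites. The rule used this contrast and the table lists only sites that passed the authors' own test, so nothing is read from these counts. Scaled reads are those of the whole site, and the sites that members overlapped were 600 to 5400 bp wide (median 1350 bp), so they can take in sequence outside the peak. At the members' sites, they ran from 41.4 to 2037 with a median of 116 in DKO replicate 1, and from 39.4 to 2121 with a median of 106 in DKO replicate 2. In Daxx-WT they ran from 5.32 to 1286 with a median of 31.1 in replicate 1, and from 4.39 to 1288 with a median of 41.7 in replicate 2. The median difference on the log2(scaled reads + 1) scale was 1.62. The other 41 members overlapped no listed site. They had a median fold enrichment of 3.33 and a median width of 367 bp, and they include the Gfi1 and Runx1 regions named in the text.

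Daxx-WT KLS cells were not devoid of reads there. Per 600 bp, the members' sites held 1.82 and 2.18 times the mean window in the 2 Daxx-WT libraries and 4.76 and 3.12 times in the 2 DKO libraries, as medians. Over all sites of the table the values were 1.90 and 1.99 in Daxx-WT and 2.71 and 2.46 in DKO. When each library was scaled to its own mean reads per window instead of the deposited constants, the median log2 difference was 0.94. All 828 members were still higher by the mean, as were 72% of the table's sites. Both DKO libraries were above both Daxx-WT libraries at 716 of the 828 (63.6% of the table's sites). DKO replicate 2, which had the highest mean reads per window, stood nearer to Daxx-WT on that scale. What depth contributes was not tested.

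**Figure D4:**
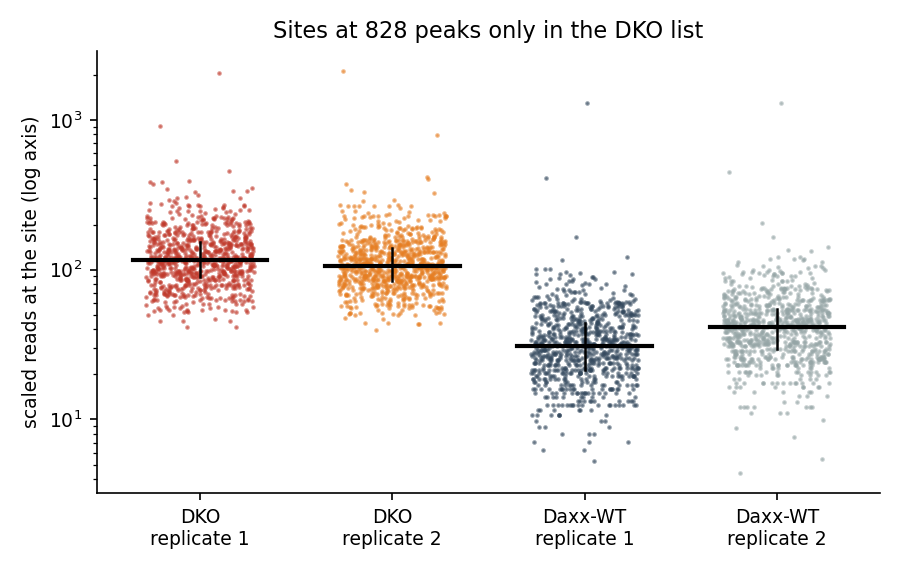
Scaled reads (log axis, y) at the sites of 828 DKO-only regions in the 4 KLS libraries of the DKO against Daxx-WT table (x). Each point is 1 region, the horizontal line is the median and the vertical line the interquartile range, and the medians are 116 and 106 in DKO and 31.1 and 41.7 in Daxx-WT.

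The strongest region was 3317 bp from the nearest transcript start and 78424 bp from the protein-coding start of Ednra, the endothelin receptor type A (chr8:77802860-77804218, intergenic, fold enrichment 8.63). The DKO libraries held 228 and 201.4 scaled reads there against 23.1 and 42.8 in Daxx-WT, and the nearest peak of any other list was 60908 bp away. The region nearest to Smc5, in an intron of Mamdc2 (chr19:23357335-23357661, fold 7.86), had 81.7 and 107 against 44.4 and 46.1 scaled reads. It was the least changed of the 3 strongest, since DKO was close to 2 times Daxx-WT there (log2 difference 1.03). At Vmn1r43, a vomeronasal receptor gene, a region under an annotated UTR (chr6:89867088-89867863, fold 7.79) had 203 and 126 scaled reads in DKO and 11.5 and 17.6 in Daxx-WT. Its log2 difference of 3.4 was the highest of all 828, and a second member near the same gene (chr6:89859784-89860260) had 148 and 89.9 against 21.3 and 8.77 scaled reads, a log2 difference of 2.98.

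The next regions by strength lay near genes of different functions. Rasl11b, a small GTPase of the Ras family, was nearest to chr5:74164585-74165227 (fold 6.79), with 204 and 127 scaled reads in DKO and 55.9 and 59.2 in Daxx-WT. In an intron of Rgs6, a regulator of G-protein signalling, chr12:82969089-82970046 (fold 6.62) had 192 and 123 against 24.9 and 50.5. At Rasl11b and Rgs6 both DKO values stood above the Daxx-WT values, as at all 828 members with a site. Replicate 1 of DKO was the highest. The regions nearest to Pelp1, a nuclear receptor coregulator (chr11:70417901-70418871), Prok2, a chemokine-like peptide made by neutrophils (chr6:99755728-99756520), and Gria1, a glutamate receptor subunit (chr11:57091177-57092031), had folds of 6.48, 6.46 and 6.44. Their scaled reads in DKO were 197 and 168 at Pelp1, 165 and 133 at Prok2 and 161 and 89.0 at Gria1, against 25.7 and 43.9, 16.9 and 46.1, and 27.5 and 31.8 in Daxx-WT. The tenth, 235531 bp from Gata6, a GATA factor of endoderm and heart (chr18:11288575-11288880, fold 6.37), had 77.4 and 77.8 against 19.5 and 47.2.

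**Figure D5:**
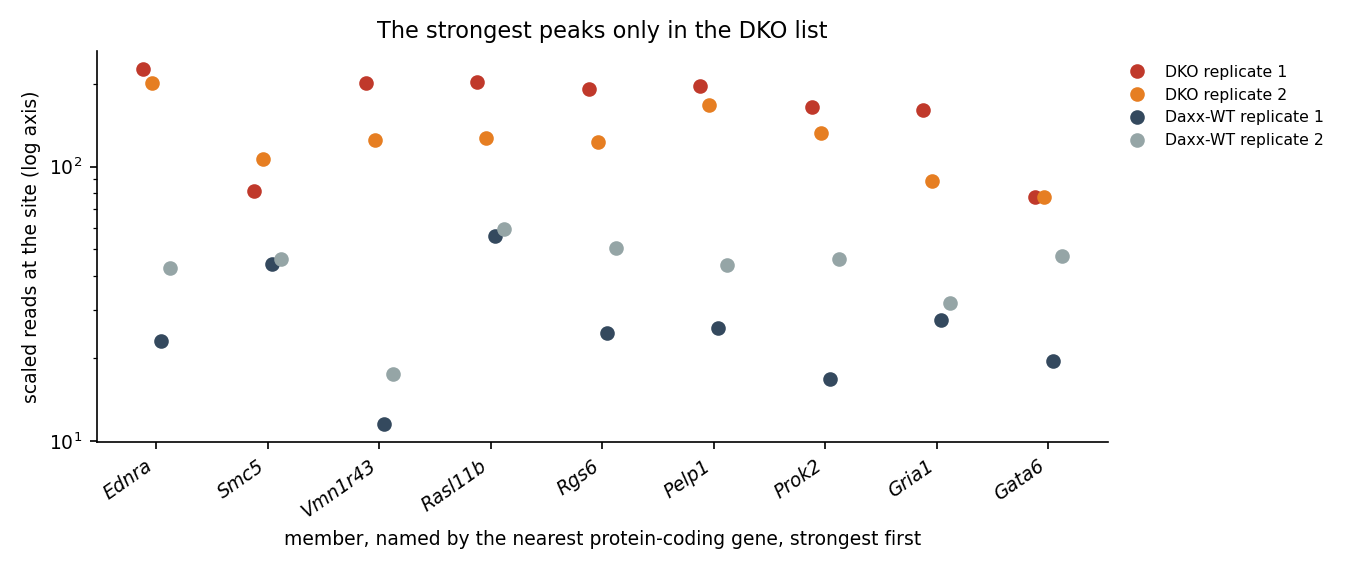
Scaled reads (log axis, y) in 2 DKO and 2 Daxx-WT KLS libraries at the 9 regions with a listed site among the 10 DKO-only regions of highest fold enrichment, strongest first (x), named by the nearest protein-coding gene. The DKO points lie above the Daxx-WT points at all 9 regions, as at all 828 members with a site.

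Beside Vmn1r43, the highest ratios were at Zfp507 (chr7:36056327-36056912), Gm11639 (chr11:104688326-104689121) and Wdr70 (chr15:7987271-7987857), with log2 differences of 2.98, 2.92 and 2.83. Zfp507, a zinc-finger gene, had 65.8 and 66.5 scaled reads in DKO and 12.4 and 4.39 in Daxx-WT. The lowest ratios were at Chst12 (0.68), Sfi1 (0.69), Prex1 (0.72), Selenon (0.79) and Max (0.79). At Chst12, a chondroitin sulfotransferase (chr5:140506337-140506718), the scaled reads were 177 and 153 in DKO and 93.2 and 113 in Daxx-WT. The most reads were at the site over the Sfi1 region, 2037 and 2121 in DKO and 1286 and 1288 in Daxx-WT. That site (chr11:3099901-3105300) is 5400 bp wide and the region itself (chr11:3100851-3101050) only 200 bp, so most of the site lies outside the member. A Daxx-WT KLS peak lies inside the site, 101 bp from the region. A peak of another list was also 427 bp from the Chst12 member, 273 bp from Prex1 and 163 bp from Selenon, so 4 of the 5 had a peak of another list within 500 bp.

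The members' nearest protein-coding genes numbered 757, or 3.45% of 21911. Of these, 666 had 1 member, 73 had 2, 15 had 3 and 3 had 4. Among the lists of 25 blood cell genes, the granulocyte and monocyte list had 4 (Fcgr2b, Ltf, Camp and Gfi1), the stem cell list 4 (Lmo2, Runx1, Erg and Fli1), the T and NK list 3 (Tcf7, Id2 and Ets1) and the mast cell list 2 (Kit and Cd200r3). The AP-1 and immediate early list had 1 (Egr3) and the stromal and endothelial list 1 (Vcam1). The lists of B lymphoid genes, erythroid and megakaryocyte genes, interferon-stimulated genes, cell cycle genes and H3.3 chaperones and silencing genes had 0. Of the interferon list, 24 genes were annotated. With 25 genes a list, 3.45% corresponds to under 1 gene, and these small counts were not tested. The lists were not absent from the DKO peaks as a whole: 20 of the 25 granulocyte and monocyte genes, 16 of the stem cell genes, 13 of the B lymphoid genes and 12 of the erythroid genes were nearest to some DKO peak, as were 12006 of the 21911 protein-coding genes (54.8%).

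Among granulocyte genes, Camp, the cathelicidin of neutrophil granules, had members at 11481 bp (chr9:109861098-109861791) and 4615 bp (chr9:109854232-109854760) from its start. The former had 163 and 155 scaled reads in DKO and 43.5 and 53.7 in Daxx-WT, and the latter 135 and 118 against 33.7 and 62.5. At Ltf, the lactoferrin gene, named after its values were seen, chr9:111017121-111017508 had 87.0 and 91.8 against 25.7 and 36.2. Both genes belong to neutrophil granules. At each the 2 DKO libraries stood above the 2 Daxx-WT libraries, as at all 828 members with a site. The member nearest to Gfi1, a repressor needed for neutrophils (chr5:107678390-107678782, fold 4.51), had no listed site.

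Among stem cell genes, the member in Fli1, an ETS factor (chr9:32526902-32527673), had 163 and 78.7 scaled reads in DKO and 34.6 and 35.1 in Daxx-WT, with DKO replicate 2 less than replicate 1. Near Lmo2, a bridging protein of blood stem cell complexes (chr2:103954598-103955394), the values were 131 and 116 against 37.3 and 40.6. In Ets1, a lymphoid ETS factor (chr9:32661412-32662154), they were 118 and 112 against 38.2 and 39.5. At all 3 the groups did not overlap, as at all 828 members with a site and 72.1% of the table's sites. The stronger member nearest to Id2, an inhibitor of E proteins (chr12:25264768-25265623), lay 167628 bp upstream of its start and had 337 and 264 scaled reads in DKO and 60.4 and 93.2 in Daxx-WT. The members nearest to Tcf7, Fcgr2b and Erg, named after their values were seen, had log2 differences of 1.66, 1.32 and 0.84.

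Kit, the stem cell factor receptor on which KLS cells are sorted, had members 7488 bp (chr5:75566803-75567428) and 80355 bp (chr5:75493942-75494561) upstream of its start. The nearer had 90.1 and 90.9 scaled reads in DKO and 16.9 and 37.3 in Daxx-WT, and the farther 118 and 92.8 against 16.0 and 45.0. The Daxx-WT libraries differed from each other at Kit by more than the DKO libraries did. Cd200r3, an activating receptor of basophils and mast cells, had a member at chr16:44984809-44985450 with 195 and 137 against 23.96 and 39.5. The member nearest to Egr3, an immediate early zinc-finger gene (chr14:70033845-70034585), had 171 and 110 against 16.0 and 63.6. Vcam1, the adhesion molecule of niche cells, had members at chr3:116137776-116138416 and chr3:116159257-116159881 with 105 and 88.1, and 91.2 and 78.7, against 23.96 and 24.1, and 18.6 and 23.03.

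Usp24, Ednra and Lipg were each the nearest gene of 4 members. The 4 near Ednra spanned 108 kb, with 3 in its introns, and log2 differences of 1.42, 2.09, 2.23 and 2.73. The 4 near Lipg, the endothelial lipase gene, lay within 22.3 kb of chromosome 18, 2 of them at 1 site (266 and 264 scaled reads in DKO against 55.9 and 91.0). Near Usp24, a deubiquitinase, 2 of the 4 also shared a site, with 224 and 141 against 23.96 and 45.0. Neighbouring members are therefore not separate observations: 45 neighbouring pairs lay within 10000 bp of each other, and 64 members formed 20 runs of at least 3 with gaps under 100 kb.

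In KLS cells that lacked Daxx alone, few members were at a listed site, as was so for the shared DKO peaks. Most of these members were lower, as were most sites of the table. In the table of Daxx-KO against Daxx-WT KLS cells, which holds no DKO library but the same Daxx-WT libraries, 57 members (6.56%) overlapped a site, against 5.39% of the shared DKO peaks. Of these 57, 51 (89.5%) were lower in Daxx-KO by mean scaled reads, and 80.9% of the table's 17311 sites were lower. In 49 of the 51 all 3 Daxx-KO libraries lay under both Daxx-WT libraries, as at 80.8% of the table's sites. The median scaled reads of the 57 were 20.04, 12.3 and 13.2 in Daxx-KO against 28.3 and 37.8 in Daxx-WT. None of the 57 and none of the 17311 sites (0%) had an adjusted p under 0.05 by limma with Benjamini-Hochberg adjustment over 407030 windows, and the lowest adjusted p was 0.284, while 56 of the 57 had an unadjusted p under 0.05, as had 96.8% of the table's sites. With a pseudocount of 5 in place of 1, 14 of the 57 passed, 11 lower and 3 higher, and so did 25.2% of the table's sites.

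The strongest of them was in an intron of Pde11a, a cyclic nucleotide phosphodiesterase (chr2:76266598-76267022), and was 1 of the 6 that were higher. The 3 Daxx-KO libraries held 60.1, 46.4 and 59.3 scaled reads against 18.2 and 17.2 in Daxx-WT, a log2 difference of 1.58 (SE 0.29, limma adjusted p = 0.284). In the DKO table the same region had 110 and 74.0 against 17.8 and 16.5. Pde11a thus had groups that did not overlap in either table, and both tables used the same Daxx-WT libraries. The same held for all 828 members in the DKO table and, in the higher direction, for 18.8% of the sites of the Daxx-KO table. The other regions named by strength were lower: in Tmem40 (chr6:115747946-115748526) the scaled reads were 11.1, 9.62 and 7.53 in Daxx-KO against 22.8 and 25.2 in Daxx-WT, with a log2 difference of -1.28 (SE 0.30). In Lpp, an adhesion adaptor (chr16:24516920-24517458), they were 7.79, 9.62 and 5.64 against 23.7 and 22.9, with a log2 difference of -1.51 (SE 0.31). Golim4, a Golgi membrane protein (chr3:75926195-75926902), and Elmsan1 (chr12:84225745-84226815) had log2 differences of -1.42 (SE 0.37) and -1.40 (SE 0.46). At Lpp, Tmem40, Golim4 and Elmsan1 the mean was lower in Daxx-KO than in Daxx-WT, as at 80.9% of that table's sites, and did not pass the test. In DKO these regions were higher, as were all 828 members with a site. The sites also differ between the tables: at Elmsan1 Daxx-WT held 61.2 and 58.1 scaled reads in the DKO table, and 37.4 and 37.8 in the Daxx-KO table.

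In LT-HSCs 3 d.p.i. 17 members (1.96%) overlapped a site, against 4.41% of the shared DKO peaks. Of the 17, 12 were lower in Daxx-KO by mean scaled reads (70.9% of the 11927 sites of that table were lower), and in all 12 the groups did not overlap (70.7% of the sites). None of the 17 and none of the table's sites (0%) passed limma at an adjusted p of 0.05 over 413247 windows, with a lowest adjusted p of 0.301, while all 17 had an unadjusted p under 0.05, as had 96.0% of the table's sites. The strongest, in an intron of Syne1, a nuclear envelope protein (chr10:5185236-5186021), had 11.9, 8.59 and 13.7 scaled reads in Daxx-KO against 31.6 and 28.1 in Daxx-WT, a log2 difference of -1.33 (SE 0.26). It was also lower in Daxx-KO KLS cells, with means of 25.2 against 60.5. Susd1 (chr4:59399239-59399773) had 20.2, 20.04 and 14.8 against 54.1 and 31.9. Prkag2, a subunit of AMP-activated kinase (chr5:24981833-24982176), Prim2, a DNA primase subunit (chr1:33502361-33502631), and Gm5294 (chr5:138828508-138829479) had log2 differences of -0.75, -1.05 and -1.67. These 5 were all lower in Daxx-KO LT-HSCs.

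The Runx1 member (chr16:92818581-92819199, an intron of the gene for the RUNX factor of blood stem cells) was 1 of the 5 that were higher in LT-HSCs. It had 93.6, 96.4 and 90.8 scaled reads in Daxx-KO against 59.7 and 44.1 in Daxx-WT, a log2 difference of 0.85 (SE 0.23, limma adjusted p = 0.367). It had no listed site in either KLS table.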

How the data were processed

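ATAC-seq libraries were processed by the authors, whose notes name CASAVA 1.8.4, cutadapt 1.13, STAR 2.5.3 and bedtools and the build mm10. The peak caller is not given in the sources used here. Peaks were deposited as 1 list per group, so libraries cannot be compared for presence of a peak. In 5 lists the authors kept replicate-consistent (IDR) peaks with a score, a ratio (fold enrichment over local background) and a −log10 p and q. The other 6 lists hold positions alone. Lines of 1 interval with several summits were counted once. The 3 site tables were made by the authors with diffReps 1.55.6 (window 600 bp, step 50 bp, p cutoff 0.0001). Per the file headers, reads were divided by a constant per library, and the deposited mean signal, log2 fold change and p-value columns were not used.

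Nearest genes, distances and features came from GENCODE M21, sequence from GRCm38. Site values were fitted as log2(scaled reads + 1) with limma 3.58.1 in R 4.3.3, adjusted over all windows tested, within each table and without covariates. These scaled values are not whole counts, so a count test was not used. The procedure was tested on simulated sites, which had not passed a cutoff as the listed sites had. That check therefore does not cover how the authors' cutoff acts on the p-values. Depth is known only through mean reads per window and the constants, so no interval was set on single values. Replicates are those of the labels, which do not say whether they are separate animals. The study's methods call the replicates of its genomic assays biological. The p-values measure the spread between these samples. Regions named were the 10 strongest (1 of them is not reported here), the 5 highest and 5 lowest ratios, the 3 strongest per gene list, the 5 strongest at sites of the Daxx-KO tables, and genes with 4 or more members. Gene lists and members were chosen with earlier results of these data known. The alternatives tried were the overlap and distance rules, strength, other starts, motif windows, pseudocount, filter, scaling, a replicate block and leaving out each library.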

Additional observations from a re-analysis of the deposited data

How the results depend on the processing

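The number of DKO-only regions was 951 when an overlap of at least 50% of the DKO peak was needed to remove it, 764 with no peak of another list within 500 bp, 93 among the DKO peaks above the list's median fold enrichment and 3376 when only the other 2 KLS lists were compared. The distal share was 77.4% beyond 2500 bp and 95.1% from starts of protein-coding transcripts alone. The C/EBP share was 19.6% within 50 bp of the summit (7.25% of shared DKO, 3.90% of Daxx-WT and 4.06% of Daxx-KO KLS peaks), 38.8% over whole intervals (29.0%, 28.5% and 30.3%) and 28.6% among distal members, an alternative chosen after seeing the data. The Pu.1 share was 3.91% over whole intervals. Whole intervals differ in length between the peak sets, as given above. For the Daxx-KO KLS table, a pseudocount of 5 let 14 members pass limma, with 539 sites higher and 3824 lower in the whole table. The median log2 difference fell toward 0 when libraries were scaled to the mean reads per window, to 0.94 in DKO, -0.79 in Daxx-KO KLS and -0.79 in LT-HSCs. With an overlap of at least 50% of the peak, 822 members were at a site of the DKO table, all of them higher, as were 72.1% of its sites. A pseudocount of 5, the filter on low values, the other scaling and each library left out kept all 828 members higher in DKO. The rule and the authors' cutoff used that contrast, so nothing is read from its direction. In both Daxx-KO tables the filter, the other scaling and each Daxx-KO library left out let 0 members pass the test. The pseudocount of 5 let 0 members pass in LT-HSCs. The causes of these shifts were not tested.

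KLS replicate numbers were not shown to pair the libraries: deviations of same-numbered libraries correlated at -0.0031 in the DKO table, and at 0.0084 and 0.052 in the Daxx-KO table. With the replicate number as a replicate block, all 828 members stayed higher in DKO, a direction from which nothing is read. In that fit 1 of the 57 members passed in the Daxx-KO KLS table, where 13.3% of the sites passed. No paired analysis was possible for LT-HSCs because the columns carry no replicate number.

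The main limits are that peaks were called once per group and that the 2 DKO libraries had unequal mean reads per window. The tables list only sites past the authors' own cutoff, so members at no site have no value. No direct DKO against Daxx-KO table was used. A motif match is a match of letters and shows no binding.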

Other observations

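Some members lay in repeated sequence at chromosome ends. Within 200 kb of the first sequenced base of a chromosome were 5 members, 3 of them near Scaf8 on chromosome 17 (chr17:3010023-3010545, chr17:3020049-3020308 and chr17:3020465-3020708), with 81.8%, 70.8% and 69.7% of their bases marked as repeat. The others were the Sfi1 member on chromosome 11 and a member near Vmn1r2 (chr4:3050062-3051053), 54.5% and 52.0% repeat. The telomere repeat (TTAGGG in tandem) was in 4 members, near Slc14a2, Olfm1, 4931417E11Rik and Xkrx, with 58.8% to 79.4% of their bases marked as repeat and folds of 3.09 to 4.70. That is 0.460% of the members against 0.0752% of the shared DKO peaks and 0.196% of the Daxx-KO-only peaks. These were chosen after their values were seen. How reads were assigned to repeated sequence is not given in the sources used here, and its part in these peaks was not tested.

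By chromosome, 72 members were on chromosome 2, the most of any, and 6 on X. The members were 5.56% of the DKO peaks on chromosome 12, 2.77% on chromosome 13 and 1.67% on X. The Y chromosome had 8 DKO peaks and 0 members.

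Trib1 (a pseudokinase that lowers C/EBP-alpha protein) and Klf5 (a zinc-finger factor of granulocyte formation) were each nearest to 3 members, picked after their values were seen. The 3 near Trib1 had log2 differences of 2.05, 1.83 and 1.53, and the 3 near Klf5 of 1.90, 1.75 and 2.07, at 58214 to 174237 bp from the start of Trib1 and 154914 to 325825 bp from that of Klf5.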
